A study of Mus musculus with 11 samples.

Results

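The genes described here encode the nuclear-encoded subunits of the mitochondrial respiratory chain and of ATP synthase, with a few of their assembly factors. They were chosen by symbol, as every gene whose single annotated symbol begins with Nduf, Uqcr, Sdh followed by a to d, Cox followed by 4 to 8, or Atp5. This gave 90 of the 20352 genes measured, read by 495 probesets (a median of 5 per gene, between 1 and 20). No filter on low values was applied, so that all 90 entered each test. One of them, annotated as Cox4nb, is the gene now named Emc8, which encodes no subunit of the chain. The 13 subunits encoded by mitochondrial DNA were not analysed here.

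Expression was measured in 11 mouse tissue pieces, 1 array each. The 5 keratoacanthomas, squamous tumours built of keratinocytes, came from K14-Cre;Zmiz1 double transgenic mice, and so did normal skins 1 and 2. Normal skins 3 and 4 came from mice with the K14-Cre transgene alone and normal skins 5 and 6 from mice with the Zmiz1 transgene alone. K14-Cre expresses Cre recombinase from the promoter of keratin 14, a keratin of basal keratinocytes; ages and the promoter of the Zmiz1 transgene were not given in the sources used here. Nothing in the labels ties a piece to an animal, and the p-values therefore describe variation from array to array, some of which may be technical. Levels are deposited log2 values, the gene level being the median over the gene's probesets, and a difference is keratoacanthoma minus normal skin on that scale. A gene was called higher or lower where limma's adjusted p (Benjamini-Hochberg over all 20352 genes) was below 0.05.

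The respiratory chain carries electrons from NADH and succinate to oxygen and pumps protons across the inner mitochondrial membrane. Complex I accepts electrons from NADH, complex II from succinate, complex III passes them to cytochrome c and complex IV, cytochrome c oxidase, passes them to oxygen. Complex V, ATP synthase, lets the protons flow back and makes ATP. Several complex IV subunits exist as pairs of isoforms, one found in most cells and the other in striated muscle or a few other tissues, and striated muscle and brown fat are rich in mitochondria, whereas epidermal keratinocytes also draw strongly on glycolysis.

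Skin pieces hold several cell types, and markers of some of them moved between the groups. All 18 skeletal muscle markers were lower in the tumours, and their mean level lay between 5.58 and 6.97 in keratoacanthoma and between 10.02 and 11.28 in normal skin. Of the fat markers 7 of 8 were lower (means of 5.98 to 7.14 against 7.80 to 9.07), of the fibroblast markers 3 of 6 (7.53 to 8.52 against 8.65 to 9.75), of the macrophage markers 2 of 5 (6.22 to 7.49 against 7.06 to 8.29) and of the slow muscle markers 1 of 6. Of the keratinocyte markers 5 of 9 were higher and none lower (10.60 to 10.74 against 9.58 to 10.19). Among all genes 10.8% were called lower and 14.5% higher, so 1 of 6 slow muscle markers is near that share. No macrophage marker was called against normal skins 1 and 2, which share the tumours' genotype. Of the 5 brown fat markers 2 were higher and 1 lower (6.07 to 6.56 against 5.44 to 6.12). Dio2 and Cidea were higher, with tumour minus normal differences of 3.22 and 0.51, and Zic1 was lower, at -1.13. Ucp1, the defining gene of brown fat, stood at 4.35 ± 0.10 (SD, n = 5) in the tumours and at 4.31 ± 0.27 (n = 6) in the normal skins, below the 25th percentile of every array (4.88 to 4.95). None of 11 hair keratins was called, and their mean was high on keratoacanthoma 4, normal skin 1 and normal skin 3, at 8.84, 9.90 and 9.60, against 5.42 to 6.02 on the other arrays. In such bulk pieces, fewer cells of a type and less RNA per cell cannot be told apart.

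The deepest falls of the whole group were in the 3 muscle-type subunits of complex IV. Cox8b, the form of subunit VIII found in muscle and brown fat, was at 6.25, 5.37, 6.26, 6.22 and 5.67 in keratoacanthomas 1 to 5 and at 10.41, 11.85, 10.80, 11.12, 11.07 and 10.87 in normal skins 1 to 6. The lowest normal skin thus stood more than 4 log2 units above the highest tumour. The difference was -5.07 (SE 0.24, adjusted p = 7.0e-08), or 33.6-fold lower, and its 2 probesets gave -5.16 and -4.98.

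Cox7a1, the heart and skeletal muscle form of subunit VIIa, was at 5.97, 5.65, 5.90, 5.87 and 5.78 in the tumours and at 9.29, 11, 9.90, 9.97, 9.56 and 9.79 in the normal skins. The tumours lay within a narrow band that did not reach any normal skin. It was 17.0-fold lower (difference -4.08, SE 0.23, adjusted p = 2.2e-07), and its 4 probesets ranged from -4.58 to -3.84. Cox6a2, the heart and skeletal muscle form of subunit VIa, was at 6.52, 6.04, 6.83, 6.79 and 6.31 in the tumours and at 8.70, 10.57, 9.10, 9.22, 9.55 and 9.07 in the normal skins. The groups again did not overlap. It was 7.31-fold lower (difference -2.87, SE 0.28, adjusted p = 1.5e-05), and its 4 probesets ranged widely, from -4.79 to -1.92.

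The widely expressed partners of these isoforms gave no call. Cox8a was at 9.39, 9.49, 9.39, 9.49 and 9.42 in the tumours and at 9.27, 8.70, 9.34, 9.40, 9.27 and 9.38 in the normal skins (difference 0.21, SE 0.13, adjusted p = 0.25). Apart from normal skin 2, which was lowest, the groups lay close together. Cox7a2 was at 9.72, 10.22, 10.24, 10.37 and 10.37 in the tumours and at 10.06, 10.15, 9.86, 9.77, 9.94 and 10.11 in the normal skins (difference 0.20, SE 0.13, adjusted p = 0.29). Here keratoacanthoma 1 was below all 6 normal skins and the other tumours were above them. Cox6a1 was at 10.09, 10.01, 9.93, 9.98 and 10.19 in the tumours and at 9.98, 9.38, 9.82, 9.59, 9.72 and 9.88 in the normal skins, where only normal skin 1 reached the tumour range (difference 0.31, SE 0.12, adjusted p = 0.065). Under quantile normalization of the gene levels, Cox8a and Cox7a2 were at -0.090 and -0.0080, so that their direction was not fixed.

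**Figure D1:**
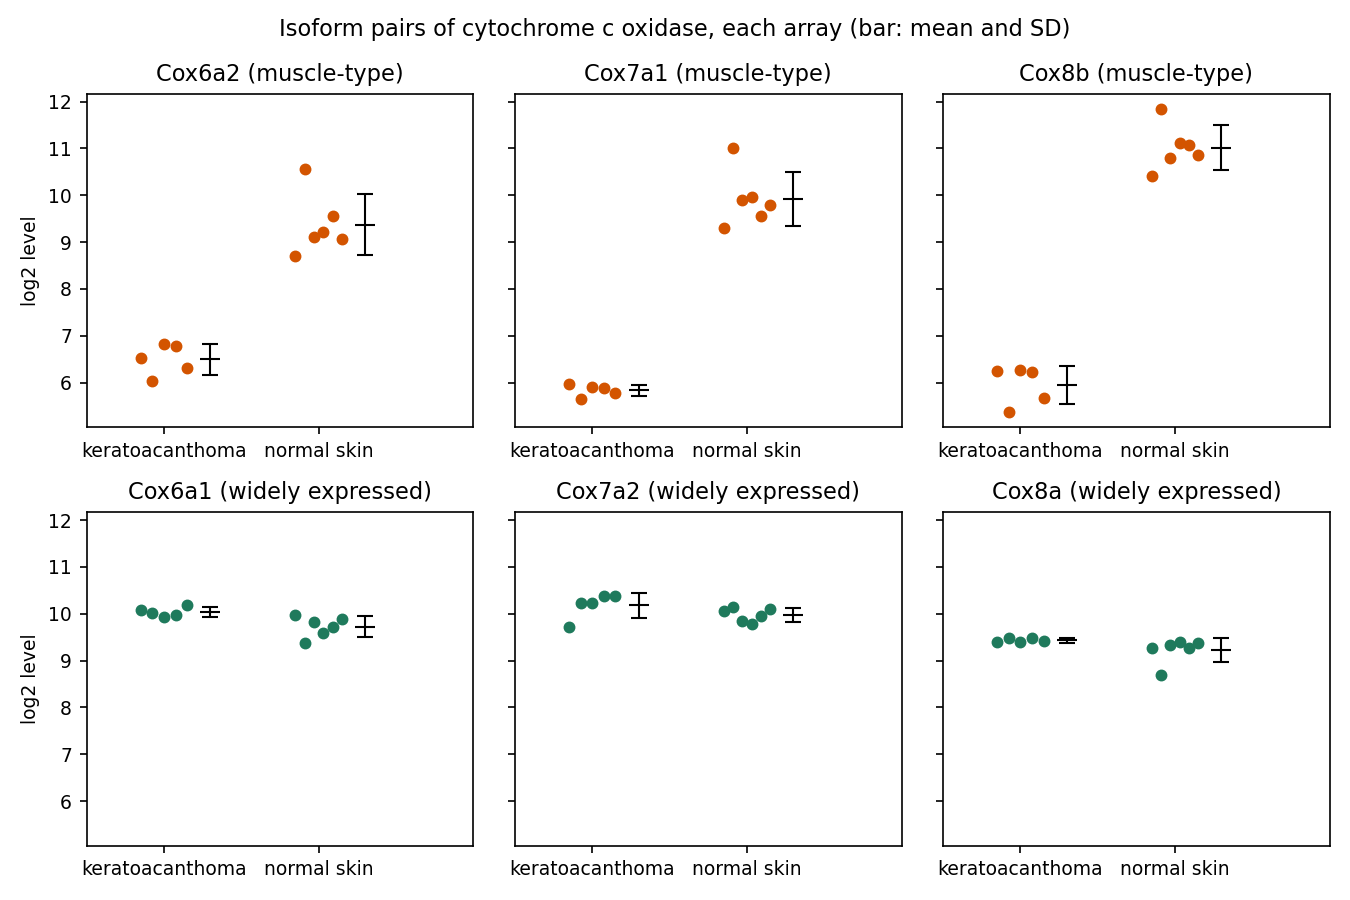
Log2 level on each array (y axis) of the 3 muscle-type subunits of cytochrome c oxidase (top row) and of their widely expressed partners (bottom row), in 5 keratoacanthomas and 6 normal skins; points are arrays and bars the mean and SD. Each muscle-type gene lies at or below 6.83 in every tumour and at or above 8.70 in every normal skin, while each partner overlaps between the groups.

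Since the isoforms of a pair are transcribed from separate genes, the stretches around their start sites are shown to let the starts of muscle-type and widely expressed genes be compared. They are RefSeq windows on build GRCm38.p6 that run from 250 bases before the start to 50 after it, read 5′ to 3′ on the gene's strand. They lie at chr7:140900397-140900696 (minus strand) for Cox8b, chr19:7217567-7217866 (minus) for Cox8a, chr7:30183921-30184220 (plus) for Cox7a1, chr9:79759804-79760103 (minus) for Cox7a2 and chr5:115348909-115349208 (minus) for Cox6a1. Capitals mark matches, on either strand and allowing overlaps, to a TATA box (TATAAA), an E-box (CANNTG), an ETS core (CCGGAAG), the core of the nuclear respiratory factor 1 site (CGCATGCG), an ERR site (AAGGTCA) or the MEF2 motif. Cox6a2 has no window in the table.
Cox8b: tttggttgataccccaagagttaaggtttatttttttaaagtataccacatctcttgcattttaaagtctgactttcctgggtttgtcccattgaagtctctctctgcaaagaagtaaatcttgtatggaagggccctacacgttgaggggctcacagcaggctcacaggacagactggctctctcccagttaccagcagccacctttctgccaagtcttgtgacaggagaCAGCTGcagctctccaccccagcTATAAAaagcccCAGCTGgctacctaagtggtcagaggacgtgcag
Cox8a: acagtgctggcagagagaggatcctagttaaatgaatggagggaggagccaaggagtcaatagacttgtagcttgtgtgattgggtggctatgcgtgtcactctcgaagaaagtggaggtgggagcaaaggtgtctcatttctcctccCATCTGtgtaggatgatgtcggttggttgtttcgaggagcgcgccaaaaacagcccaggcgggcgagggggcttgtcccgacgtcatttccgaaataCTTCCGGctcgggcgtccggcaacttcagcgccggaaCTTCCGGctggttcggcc
Cox7a1: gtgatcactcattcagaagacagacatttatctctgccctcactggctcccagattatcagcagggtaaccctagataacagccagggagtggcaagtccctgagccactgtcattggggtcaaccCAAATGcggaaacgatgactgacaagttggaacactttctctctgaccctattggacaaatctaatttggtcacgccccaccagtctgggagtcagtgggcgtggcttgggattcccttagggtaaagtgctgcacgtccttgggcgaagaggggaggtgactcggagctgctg
Cox7a2: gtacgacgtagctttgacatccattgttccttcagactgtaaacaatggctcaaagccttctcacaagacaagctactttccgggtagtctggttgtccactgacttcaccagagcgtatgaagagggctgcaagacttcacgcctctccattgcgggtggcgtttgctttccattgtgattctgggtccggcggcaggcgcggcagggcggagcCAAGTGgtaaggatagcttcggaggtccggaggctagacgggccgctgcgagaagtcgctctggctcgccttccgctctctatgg
Cox6a1: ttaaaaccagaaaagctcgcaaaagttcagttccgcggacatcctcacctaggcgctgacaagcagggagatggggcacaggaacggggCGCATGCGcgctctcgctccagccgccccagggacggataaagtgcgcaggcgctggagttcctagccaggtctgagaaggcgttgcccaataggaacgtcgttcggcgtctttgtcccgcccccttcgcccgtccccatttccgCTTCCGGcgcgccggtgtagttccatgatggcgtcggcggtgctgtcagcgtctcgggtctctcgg

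Among 81 windows of 75 of the 90 genes, the Cox8b window held the fewest CpG dinucleotides, 2, and the Cox7a1 window held 7. The windows of Cox8a, Cox7a2 and Cox6a1 held 19, 20 and 32. Low counts were not confined to muscle-type genes: the widely expressed Cox7b had a window with 5 and the accessory subunit Ndufc2 a window with 8. The median was 20 over the 81 windows and 7 over all 32851 windows of the table. The Cox8b window was the one of these 5 with a TATA box, and it held 2 E-boxes, the sequence bound by muscle and other basic helix-loop-helix factors. The Cox8a window held 2 ETS cores and the Cox6a1 window 1, together with 1 nuclear respiratory factor 1 core. ETS cores stood in 23.5% of the 81 windows against 8.86% of all windows, and nuclear respiratory factor 1 cores in 12.3% against 1.87%. E-boxes stood in 70.4% against 72.3%, TATA boxes in 9.88% against 13.6%, ERR sites in 9.88% against 4.72% and MEF2 motifs in 0 of 81 against 3.19%. These are matches of letters in short windows and were not tested as sites.

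Each muscle-type isoform was also taken minus its partner on the same array. Cox8b minus Cox8a was -3.48 ± 0.44 (SD, n = 5) in the tumours and 1.79 ± 0.70 (n = 6) in the normal skins, a difference of -5.28. For Cox7a1 minus Cox7a2 the difference was -4.29 and for Cox6a2 minus Cox6a1 it was -3.18. In these 3 pairs the 2 groups did not overlap, and each gave p = 0.0022 in an exact two-sided permutation test, the smallest that the 462 splits of 11 arrays allow (adjusted p = 0.0058 over the 8 pairs tested). Only the change between the groups can be read from these values, not which isoform is the more abundant.

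The other 5 pairs gave no call in the exact permutation test. Cox4i2, the form known from lung and from oxygen-regulated expression, against Cox4i1 gave a difference of -0.24 (adjusted p = 0.40). The testis forms Cox6b2 and Cox8c against Cox6b1 and Cox8a gave -0.29 and -0.23 (both adjusted p = 0.36), and Cox7b2 against Cox7b gave -0.13 (adjusted p = 0.61). By themselves Cox4i2, Cox6b2, Cox7b2 and Cox8c were at differences of -0.060, -0.13, -0.046 and -0.016, and Cox7b2 was below 4.88 on every array, under the 25th percentile of all arrays. Without dim probesets the Cox8c pair was called (difference -0.37, adjusted p = 0.0087).

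Ndufa4l2 went the other way. It encodes a relative of the complex IV subunit Ndufa4 and is known as a target of hypoxia-inducible factor. Its level was 7.53, 8.21, 7.79, 7.78 and 8.51 in the tumours and 7.42, 7.24, 6.98, 7.30, 7.25 and 7.56 in the normal skins. Keratoacanthomas 2 and 5 were highest, and keratoacanthoma 1 lay just below the highest normal skin. It rose 1.60-fold (difference 0.67, SE 0.17, adjusted p = 0.0099), with all 4 probesets above 0. Ndufa4 itself was at 0.32 (SE 0.13, adjusted p = 0.096), and Ndufa4l2 minus Ndufa4 differed by 0.35 (exact permutation test, adjusted p = 0.18). Against the double transgenic normal skins alone Ndufa4l2 was at 0.64 (adjusted p = 0.091, limma).

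Over the whole group of 90 genes, 24 (26.7%) were called lower in keratoacanthoma and 5 (5.56%) higher. Over all 20352 genes 10.8% were called lower and 14.5% higher. The median difference was -0.14 over the 90 genes and -0.044 over all genes, and 55 of the 90 were below 0. The tumours lay entirely below the normal skins in 23 of the 90 genes and entirely above them in 2, against 6.31% and 9.66% of all genes. With the 3 muscle-type isoforms set aside, 21 of 87 genes were lower and 5 higher. The split moved with scaling: quantile normalization gave 36 lower and 1 higher, and centring each array on its median 19 lower and 6 higher. Without keratoacanthoma 5 the counts were 14 lower and 2 higher, beside 7.92% and 11.8% of all genes. The count of higher genes was also 2 without keratoacanthoma 2, keratoacanthoma 4, normal skin 3 or normal skin 4, 3 without keratoacanthoma 3, and 7 without normal skin 2.

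**Figure D2:**
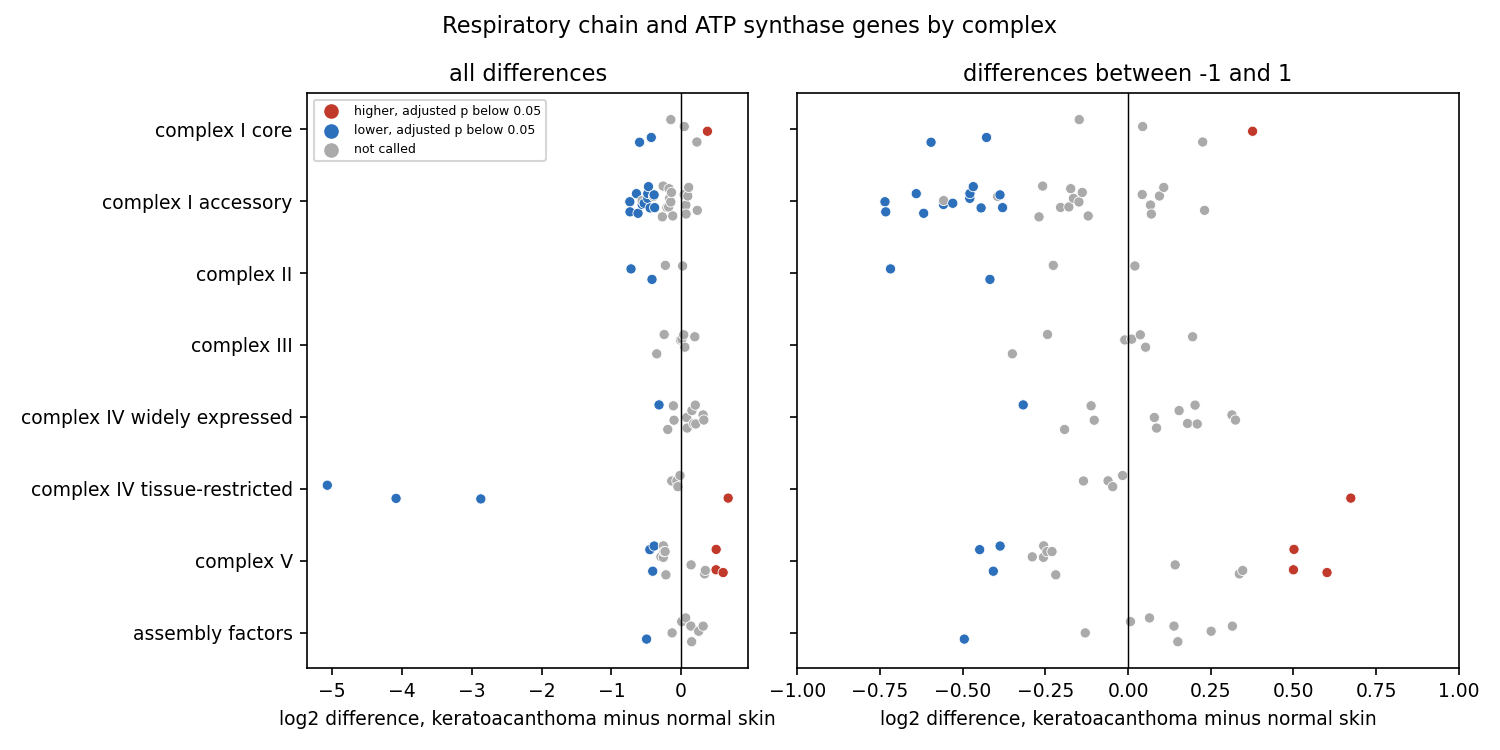
Log2 difference (x axis) of each gene, keratoacanthoma (n = 5) minus normal skin (n = 6), by complex (y axis); all genes but Emc8 are shown, red called higher, blue called lower and grey not called, and the right panel enlarges the range from -1 to 1. The 3 muscle-type isoforms stand alone at -5.07, -4.08 and -2.87, and most other blue points belong to complex I accessory subunits.

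Complex I held most of the remaining falls, in the accessory subunits that surround its catalytic core. Of 29 accessory subunits 12 fell (41.4%, against 10.8% of all genes) and none rose (against 14.5%). The median difference was -0.27. Ndufb8, a membrane arm subunit, was at 9.10, 9.34, 9.43, 9.31 and 9.28 in the tumours and at 9.66, 10.91, 9.95, 9.71, 9.93 and 9.99 in the normal skins. The groups were apart, with normal skin 2 far above the other normal skins. Ndufb8 was 1.66-fold lower (difference -0.74, SE 0.19, adjusted p = 0.012). Its 5 probesets were all below 0 but ran from -0.74 to -0.0097. Ndufa2 was at 9.78, 9.58, 9.66, 9.75 and 9.45 in the tumours and at 10.14, 11.09, 10.34, 10.03, 9.96 and 10.14 in the normal skins, again without overlap, and was 1.56-fold lower (adjusted p = 0.018; 0.051 without keratoacanthoma 5). Ndufa13, also known as GRIM-19, was at 6.85, 7.14, 7.38, 7.19 and 7.35 in the tumours and at 7.53, 8.74, 7.30, 7.46, 8.24 and 8.22 in the normal skins. Normal skin 3 fell inside the tumour range, and the difference of -0.73 (SE 0.24, adjusted p = 0.036) missed the threshold in 8 of the 11 fits that left out 1 array, all but those without normal skin 1, 3 or 4 (adjusted p up to 0.086). The 5 Ndufa13 probesets ran from -0.91 to 0.065, with 3 below 0 and 2 above it.

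The other 9 accessory subunits that fell were Ndufb4, Ndufb9, Ndufa11, Ndufb5, Ndufb11, Ndufa6, Ndufv3, Ndufa1 and Ndufa5, with differences from -0.62 for Ndufb4 to -0.38 for Ndufa5. Ndufb9 had 1 of its 4 probesets above 0 (0.076). In Ndufb4 the groups were well apart: its tumours ran from 9.32 to 9.50 and its normal skins from 9.84 to 10.54 (adjusted p = 0.0035). Ndufb4, Ndufb8, Ndufb9, Ndufb11 and Ndufa11 were called in all 22 alternative fits, while Ndufa5 was called in 6 and Ndufa1 in 9 of them. The 17 accessory subunits without a call ran from -0.56 (Ndufb7, adjusted p = 0.077) to 0.23 (Ndufab1, the mitochondrial acyl carrier protein). With 1 array left out, the count of lower accessory subunits was 5 without keratoacanthoma 5 and 7 without keratoacanthoma 1 or normal skin 6. It was 8 without keratoacanthoma 2, 3 or 4 and 9 to 11 without any other array. In these fits 7.92% to 10.8% of all genes were called lower.

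The 6 measured core subunits of complex I did not move together, with 2 lower and 1 higher (33.3% and 16.7%, against 10.8% and 14.5% of all genes). Ndufs7, the iron-sulphur protein next to the ubiquinone site, was at 7.98, 7.75, 8.02, 7.83 and 7.66 in the tumours and at 8.22, 9.18, 8.43, 8.55, 8.15 and 8.13 in the normal skins. All normal skins were above all tumours, and it was 1.51-fold lower (difference -0.60, SE 0.17, adjusted p = 0.024; 0.056 and 0.063 without keratoacanthoma 2 or 5). Ndufs3, its neighbour in the same arm, was 1.34-fold lower (difference -0.43, SE 0.12, adjusted p = 0.016), with normal skin 1 inside the tumour range. Against the same-genotype skins alone it was not called (-0.40, adjusted p = 0.13, limma 4-group model), and 1 of its 7 probesets was above 0 (0.26). Ndufs1, the large subunit that carries several iron-sulphur clusters of the electron path, was at 8.49, 8.48, 8.51, 8.52 and 8.79 in the tumours and at 8.21, 8.29, 7.83, 8.13, 8.47 and 8.16 in the normal skins. Its tumours were all above its normal skins, though only narrowly above normal skin 5. Its 20 probesets ran from -0.27 to 0.75, with 14 above 0 and 6 below it. Its rise of 0.38 (SE 0.12, adjusted p = 0.032) was lost in 7 of the 11 fits that left out 1 array, all but those without keratoacanthoma 1 or normal skin 1, 2 or 5 (adjusted p up to 0.091), and under quantile normalization (0.12, adjusted p = 0.51). Ndufs8, Ndufv1 and Ndufv2 gave no call, at -0.15, 0.044 and 0.23.

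Complex II, which is also the succinate dehydrogenase of the citric acid cycle, had falls in 2 of its 4 subunits (50%, against 10.8% of all genes). Sdhb, the iron-sulphur subunit, was at 8.17, 7.84, 8.24, 8.38 and 8.07 in the tumours and at 8.54, 9.60, 8.70, 8.51, 8.93 and 8.87 in the normal skins. The groups did not overlap and it was 1.65-fold lower (difference -0.72, SE 0.18, adjusted p = 0.011), with all 9 probesets below 0. Sdhc, a membrane anchor, was at 8.91, 8.79, 8.87, 8.96 and 8.97 in the tumours and at 9.13, 9.78, 9.23, 9.17, 9.37 and 9.24 in the normal skins. It was 1.34-fold lower without overlap (difference -0.42, SE 0.12, adjusted p = 0.022, and 0.058 without keratoacanthoma 2). Its 6 probesets ran from -0.85 to 0.30, with 5 below 0 and 1 above it. Sdha, the flavoprotein that binds succinate, was at -0.23 (SE 0.16, adjusted p = 0.32) and the other anchor, Sdhd, at 0.021 (SE 0.11, adjusted p = 0.92).

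None of the 7 complex III genes was called against all normal skins. Their differences ran from -0.35 for Uqcrb (SE 0.18, adjusted p = 0.17), read by a single probeset and called lower against the same-genotype skins alone (-0.69, adjusted p = 0.045, limma 4-group model), to 0.20 for the core protein Uqcrc1 (SE 0.21, adjusted p = 0.54). The other core protein Uqcrc2 was at 0.037 and the Rieske iron-sulphur protein Uqcrfs1 at -0.0099. Uqcrh, the hinge protein, was lower in every tumour than in any normal skin, at 11.78 to 12.03 against 12.08 to 12.32, and had the smallest adjusted p of the complex (0.064). The median of the 7 was 0.011 and turned to -0.24 under quantile normalization.

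Of the 12 widely expressed genes of complex IV, 1 was called, as lower (8.33%, against 10.8% of all genes). Cox6c was at 11.65, 11.65, 11.66, 11.67 and 11.71 in the tumours and at 11.89, 12.17, 11.95, 11.99, 11.98 and 11.93 in the normal skins. The tumours were tightly grouped and all below the normal skins, and the fall of 0.32 (SE 0.085, adjusted p = 0.015) was 1.25-fold. Under quantile normalization it was at -0.24 (adjusted p = 0.054). The other 11 ran from -0.19 for Cox7c to 0.32 for Ndufa4. They include Cox4i1, the subunit that binds nucleotides, at 0.18, Cox5a and Cox5b at -0.10 and -0.11, Cox6b1 at 0.15, Cox7b at 0.080 and the supercomplex factor Cox7a2l at 0.086. The median of the 12 was 0.12, but 0.18 on centring each array and -0.092 under quantile normalization. On centring, with array weights, with the mean over probesets and in some other fits, 1 of the 12 was called higher.

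Of the 15 subunits of ATP synthase 3 were higher and 3 lower (20.0% each way, against 14.5% and 10.8% of all genes), shares near those of all genes, with a median of -0.23. Quantile normalization gave none higher and 8 lower, and leaving out keratoacanthoma 2, 4 or 5 or normal skin 3 or 4 gave 1 higher and 2 to 3 lower. In the catalytic F1 head, Atp5d, the delta subunit of the central stalk, was at 8.83, 9.15, 8.97, 8.98 and 9.11 in the tumours and at 8.50, 8.67, 8.22, 8.36, 8.69 and 8.60 in the normal skins. All tumours were above all normal skins, and it rose 1.41-fold (difference 0.50, SE 0.11, adjusted p = 0.0051), with 4 of its 5 probesets above 0 and 1 below it (-0.13). Atp5a1, the alpha subunit, rose by the same amount (0.50, SE 0.15, adjusted p = 0.029), with normal skin 2 inside the tumour range, but was not called in 5 of the 11 fits without 1 array (those without keratoacanthoma 2, 4 or 5 or normal skin 3 or 4, adjusted p up to 0.080). Its 12 probesets ran from -0.23 to 1.20, with 7 above 0 and 5 below it. The catalytic beta subunit Atp5b was at 0.34 (SE 0.14, adjusted p = 0.097) and the gamma subunit Atp5c1 at -0.26 (SE 0.12, adjusted p = 0.14).

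Atp5e, the epsilon subunit that sits beside Atp5d on the central stalk, went the opposite way. It was at 11.01, 10.92, 11.02, 11.09 and 10.90 in the tumours and at 11.36, 11.76, 11.62, 11.27, 11.30 and 11.33 in the normal skins. The groups did not overlap, and it was 1.36-fold lower (difference -0.45, SE 0.11, adjusted p = 0.0093). Under quantile normalization neither Atp5d (0.21, adjusted p = 0.16) nor Atp5a1 (0.29, adjusted p = 0.17) was called.

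In the membrane part and peripheral stalk of the synthase, 1 of 10 genes rose and 2 fell. These shares of 10% and 20% are near the 14.5% and 10.8% of all genes. Atp5g2, one of the genes for the c subunit of the proton-driven ring, was at 9.44, 9.68, 9.64, 9.51 and 9.86 in the tumours and at 8.69, 8.91, 8.61, 8.80, 9.76 and 9.38 in the normal skins. Both Zmiz1-only skins, 5 and 6, were higher than the other normal skins, and normal skin 5 lay inside the tumour range. The rise was 0.60 (SE 0.19, adjusted p = 0.036) and missed the threshold in 8 of 11 fits without 1 array, all but those without keratoacanthoma 1 or normal skin 5 or 6 (adjusted p up to 0.090). Its sister genes Atp5g1 and Atp5g3, which encode the same mature protein, gave no call, at -0.26 and 0.14. Atp5j2 and Atp5k, the small membrane subunits f and e, were lower, at -0.41 (SE 0.11, adjusted p = 0.015) and -0.39 (SE 0.12, adjusted p = 0.030), both without overlap. For Atp5j2 the tumours ran from 11.29 to 11.54 and the normal skins from 11.69 to 12.19, and for Atp5k from 11.03 to 11.28 and from 11.36 to 11.99. Atp5k was not called without keratoacanthoma 3 or 5 or normal skin 3 (adjusted p up to 0.080).

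**Figure D3:**
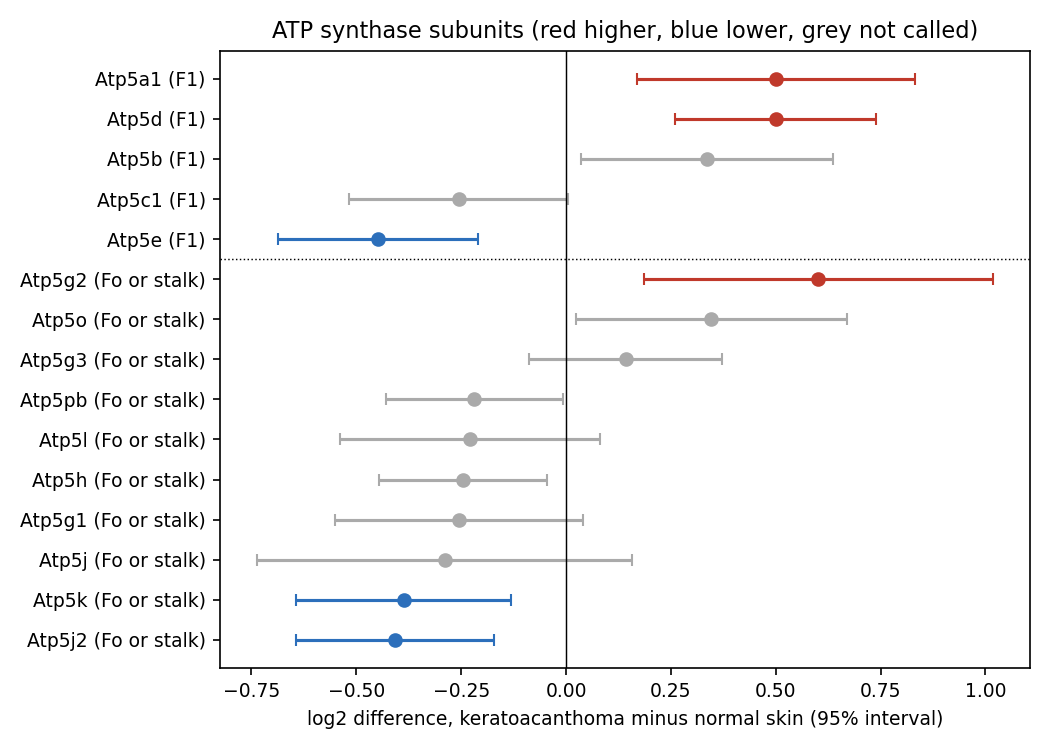
Log2 difference with its 95% interval (x axis) for the 15 ATP synthase subunits (y axis), keratoacanthoma (n = 5) minus normal skin (n = 6), the F1 subunits above the dotted line and the Fo and stalk subunits below it; red was called higher, blue lower and grey neither. Atp5d at 0.50 and Atp5e at -0.45, both of the central stalk, lie on opposite sides of 0.

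Of the 8 assembly factors, which help to build the complexes without staying in them, 1 was called, as lower (12.5%, against 10.8% of all genes). Ndufaf3, needed for complex I assembly, was at 6.13, 5.98, 5.94, 6.24 and 5.86 in the tumours and at 6.78, 6.88, 6.61, 6.52, 6.27 and 6.09 in the normal skins. The Zmiz1-only skins were nearest to the tumours, and skin 6 overlapped with them. The difference was -0.50 (SE 0.15, adjusted p = 0.024; 0.055 to 0.065 without keratoacanthoma 2, 3 or 5). The other 7 ran from -0.13 for Sdhaf1 to 0.32 for Ndufaf2. Emc8 was at -0.13 (adjusted p = 0.55).

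The normal skins differed among themselves. Normal skin 2 had the highest level of the 6 in 71 of the 90 genes (78.9%), against 25.4% of all genes. It was also highest in all 24 genes called lower. That call depends on the normal skin levels themselves, and the share among all genes called lower was not counted. Normal skin 2 was highest too in skeletal muscle markers, at a mean of 11.28, the others lying at 10.02 to 10.68. The per-array median of the 29 complex I accessory subunits was 9.34, 9.35, 9.50, 9.31 and 9.36 in the tumours and 9.62, 10.31, 9.45, 9.71, 9.88 and 9.78 in the normal skins. Normal skin 2 stood highest and normal skin 3 overlapped with the tumours. For the 4 complex II genes the tumours were at 7.95 to 8.40 and the normal skins at 8.37 to 9.04, and for the 7 complex III genes at 8.91 to 9.38 and 8.94 to 9.95. Without normal skin 2, 21 of the 90 genes were lower and 7 higher. Among the tumours, keratoacanthomas 2 and 5 had the lowest Cox8b and Cox6a2 and the lowest mean of muscle markers, 5.68 and 5.58, the others being at 6.41 to 6.97. The part of muscle in the falls of the other subunits was not tested.

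**Figure D4:**
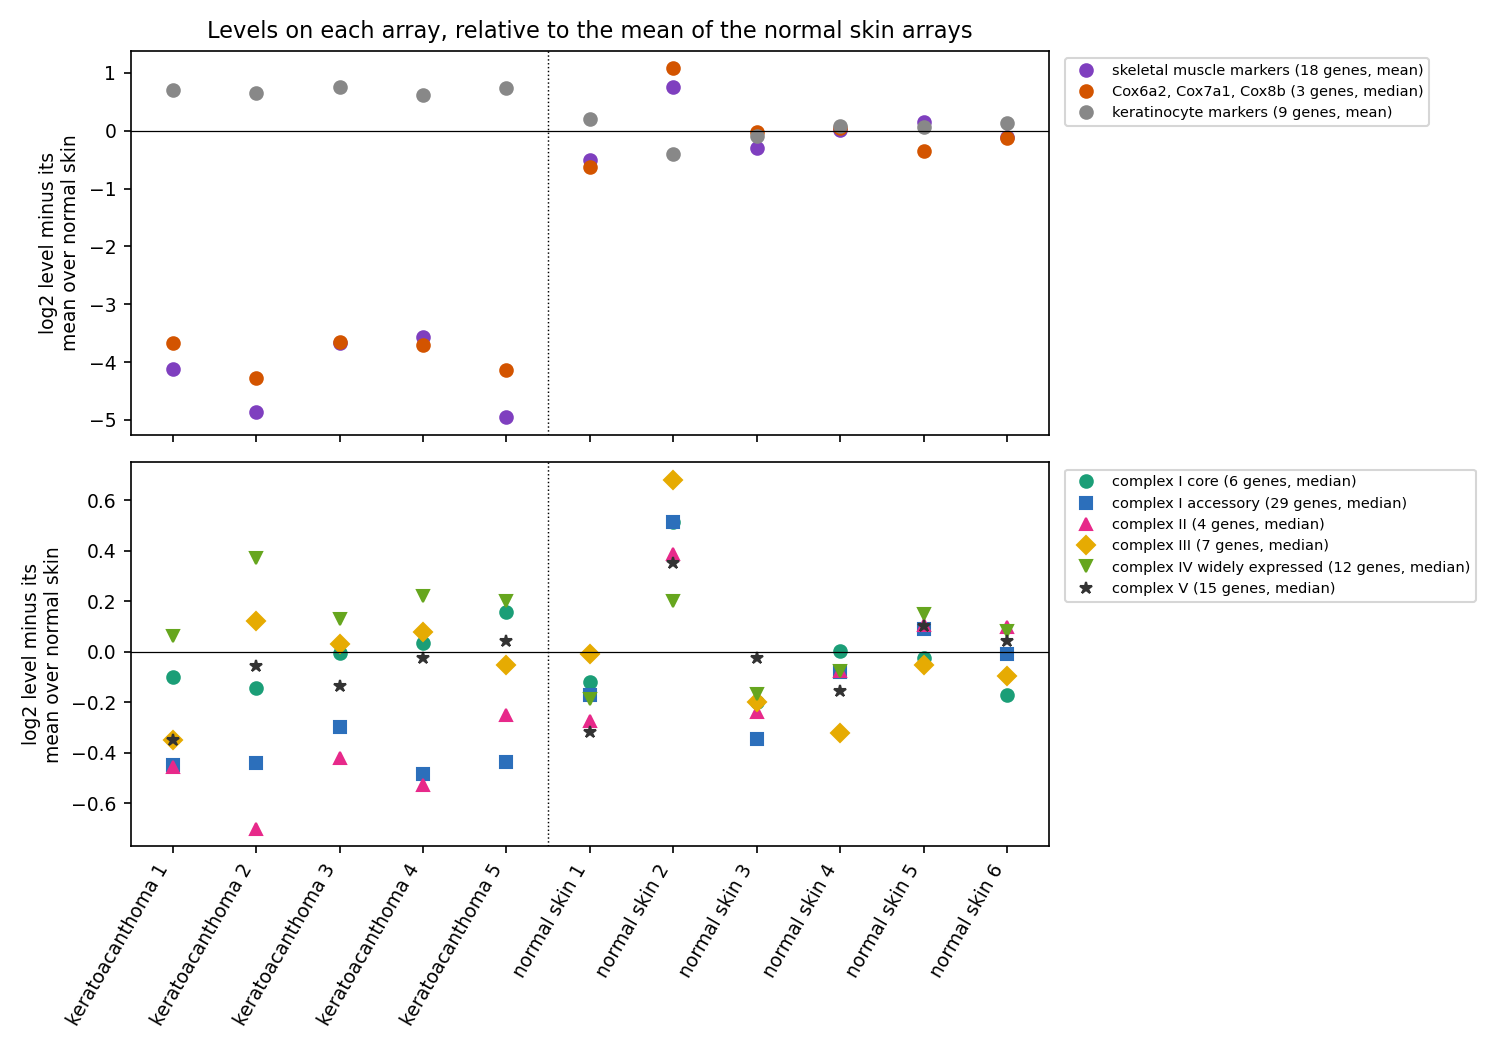
Log2 level on each of the 11 arrays (x axis) minus the mean of the same quantity over the 6 normal skins (y axis), for cell type markers and muscle-type isoforms (top) and for the median over the genes of each complex (bottom). Normal skin 2 is the highest normal skin for the muscle markers and for each complex shown, and complexes I (accessory) and II are below 0 in every tumour.

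The number of probesets moved with the differences as well. Among the 73 widely expressed subunits, the 12 with at least 9 probesets had a median difference of 0.10, with 2 higher and 1 lower. The 61 with fewer had a median of -0.20, with 2 higher and 19 lower. Over all genes the medians were 0.0034 and -0.072. Of 9351 genes with at least 9 probesets 1758 were higher and 1093 lower, and of 11001 with fewer 1201 were higher and 1107 lower. The part of probeset number in the counts was not tested. A further 26 probesets name one of these genes together with another gene and were not used; their differences ran from -0.54 to 0.26, with a median of -0.17.

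Genotype was held constant by comparing the tumours with normal skins 1 and 2, which carry the same transgenes. This comparison, a contrast in a limma model of the 4 groups, called 24 of the 90 genes lower and 2 higher (Atp5d and Atp5g2), against 6.93% and 10.6% of all genes. Cox8b, Cox7a1 and Cox6a2 were at -5.18, -4.31 and -3.14 (adjusted p = 4.3e-05, 6.4e-05 and 8.9e-04). Of the 24 lower genes 21 were among the 24 called against all normal skins. Cox6c, Ndufa6 and Ndufs3 lost the call (adjusted p = 0.055, 0.054 and 0.13), and Ndufb7, Ndufc1 and Uqcrb gained one (0.019, 0.014 and 0.045). Ndufs1, Ndufa4l2 and Atp5a1 were no longer called higher. The median over the 90 was -0.28. The lower count depended on which of these 2 skins was kept, falling without normal skin 2 and rising without normal skin 1. Either fit leaves 1 array in the double transgenic group, and calls over all genes were not counted in it. The higher count was 3 without keratoacanthoma 1 or normal skin 1 and 1 without any other single array.

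Double transgenic normal skin was set against the single transgenic skins in the same model. None of the 90 genes was called by limma, with a smallest adjusted p of 0.36, and over all genes 0.0147% were called. An unadjusted limma p below 0.05 was found for 14 of the 90 genes and for 2071 of all 20352 genes. The median difference over the 90 was 0.20, double minus single, and 0.015 over all genes. Without normal skin 1, normal skin 2 alone stood for the double transgenic group and was assumed to vary like the other groups. Some of the 90 genes were then higher, but calls over all genes were not counted in that fit. These comparisons share arrays and are not independent of each other.

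Other mitochondrial genes were counted from lists of their function. Among the carriers that work beside the chain, the largest falls were in muscle forms. Ckmt2, the sarcomeric mitochondrial creatine kinase, was 12.4-fold lower (difference -3.63, SE 0.24, adjusted p = 7.8e-07), at 4.72 to 5.51 in the tumours and 8.11 to 9.62 in the normal skins. Slc25a4, the adenine nucleotide carrier of muscle and heart, was 5.46-fold lower (difference -2.45, SE 0.18, adjusted p = 1.5e-06). Of their counterparts in other tissues, Ckmt1 rose by 0.89 (SE 0.15, adjusted p = 9.0e-04) and Slc25a5 gave no call, at 0.15 (SE 0.095, adjusted p = 0.26). Of the 12 genes on this list 2 were higher (16.7%, against 14.5% of all genes) and 3 lower (25%, against 10.8%). The others called were the phosphate carrier Slc25a3 (0.58) and the porin Vdac1 (-0.60). Cytochrome c (Cycs) and cytochrome c1 (Cyc1) gave no call, at 0.081 and 0.20.

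Of 16 regulators of mitochondrial genes 5 were higher (31.2%, against 14.5% of all genes) and 2 lower (12.5%, against 10.8%). Ppargc1a, the co-activator that drives mitochondrial biogenesis in muscle and brown fat, was at 3.97, 4.40, 4.08, 4.30 and 4.10 in the tumours and at 6.62, 7.36, 6.39, 6.29, 6.65 and 6.50 in the normal skins. The tumours were below the 25th percentile of their arrays and the normal skins above it. The difference was -2.46 (SE 0.17, adjusted p = 1.1e-06); the tumour values are dim and may lie at background, for which no measure was used here, so that the fall may be larger than this. The nuclear receptor Ppara fell by 0.63. Yy1, Gabpa and Nrf1, transcription factors that bind promoters of respiratory genes, rose by 0.75, 0.63 and 0.63 (adjusted p = 0.0015, 0.0019 and 0.0035). Ppargc1b and Esrra gave no call, at 0.018 and 0.077.

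Of 18 genes of the citric acid cycle and pyruvate dehydrogenase 4 were lower and none higher, led by Idh3b (-0.96), Sucla2 (-0.70) and Dlat (-0.50). Of 18 genes of fatty acid oxidation 7 were lower and 2 higher; Decr1, Eci1 and Acadm fell by 1.45, 1.06 and 0.84, while Acadl rose by 1.06 and Etfa by 0.40. Of 34 further assembly factors 6 were lower and 3 higher, led by Uqcc3, Cox20 and Cox16 (-0.69, -0.55 and -0.46) and by Lrpprc, Atpaf2 and Cox18 (0.59, 0.46 and 0.36). On centring each array, these assembly factors were 4 lower and 5 higher. The medians of the 3 lists were -0.093, -0.14 and -0.044. Lower calls made up 22.2%, 38.9% and 17.6% of these lists, against 10.8% of all genes. Higher calls made up 0%, 11.1% and 8.82%, against 14.5%.

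Protein import and the mitochondrial ribosome supply mitochondria with proteins. Of 24 protein import genes 11 rose (45.8%, against 14.5% of all genes) and 1 fell, with a median of 0.36. Tomm5, Timm8a1 and Tomm70a rose by 1.5, 1.13 and 0.87, and Timm21 fell by 0.61. Of 77 genes of the mitochondrial ribosome 17 rose (22.1%) and 2 fell, with a median of 0.17. Mrps22, Mrpl13 and Mrpl50 rose by 0.88, 0.80 and 0.71, and Mrpl53 and Mrps36 fell by 0.53 and 0.46. Under quantile normalization import had 8 higher (33.3%) and 3 lower and the ribosome 10 higher (13.0%, against 11.8% of all genes) and 3 lower, and without normal skin 2 they had 11 and 1, and 21 and 2. Against double transgenic skin in the 4-group model, 9 import genes (37.5%) were higher and none lower, and 5 ribosome genes (6.49%) were higher and 1 lower, against 10.6% higher and 6.93% lower of all genes; the ribosome's share of higher calls was thus below that of all genes. Differences between these lists and the respiratory genes were not tested.

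**Figure D5:**
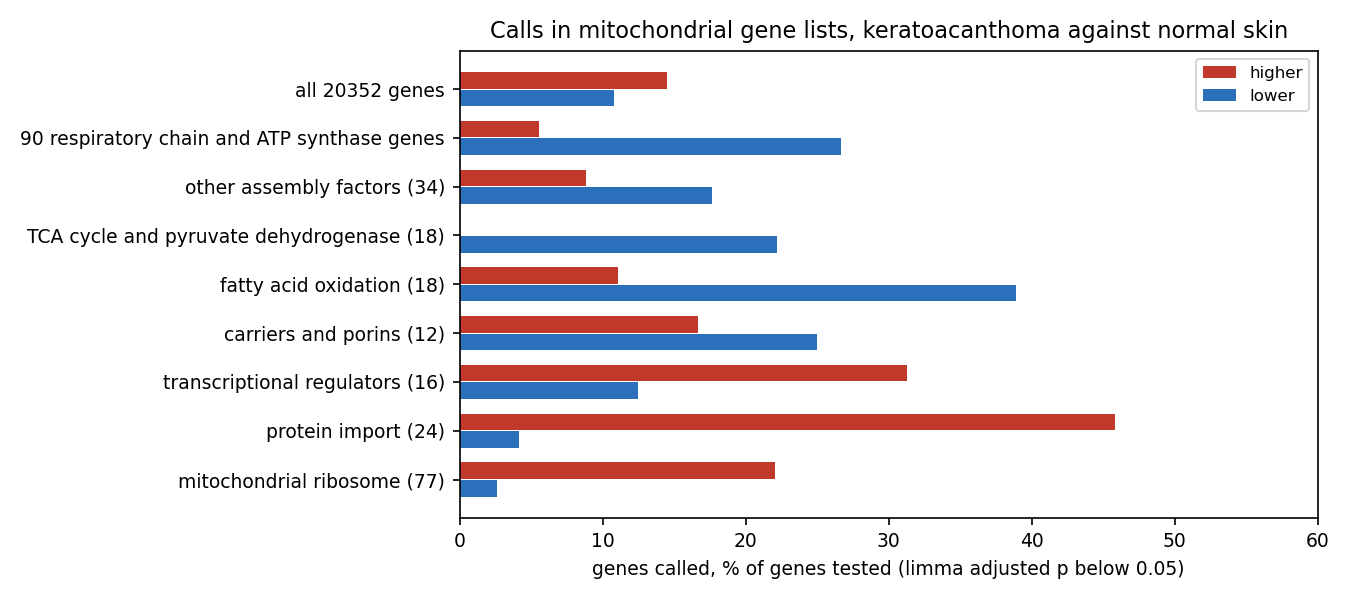
Percentage of genes called higher (red) or lower (blue) in keratoacanthoma (n = 5) against normal skin (n = 6) for all genes, the 90 respiratory chain and ATP synthase genes and 7 other mitochondrial lists, with the number of genes in brackets. Lower calls are the longer bar for the 90 genes (26.7% against 5.56%) and higher calls for protein import (45.8% against 4.17%).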

How the data were processed

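The values were deposited by the authors as log2 levels of 241576 probesets on 11 arrays, made with RMA (background correction, quantile normalization and probe summary) in Partek on mm9, per the submitters' processing notes; versions were not given in the sources used here. Total RNA was amplified and hybridised as biotin-labelled cDNA, per the labels' protocols. Values ran from 0.994 to 15.2, array medians from 6.22 to 6.27, and the number of arrays limited the precision.

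Probesets naming 1 gene (212097) were kept; 4475 named several genes and 25004 none, and 590 identical duplicates were dropped. The gene level was the median over probesets, and symbols were updated through RefSeq. Fits used limma 3.58.1 in R 4.3.3 (lmFit, eBayes) across all 20352 genes: 2 groups, and 4 groups for the genotype contrasts. Pairs and figures used Python 3.11.15 with scipy 1.17.1 and matplotlib 3.10.9. Alternatives were the gene summary, dim probesets or genes, scaling, eBayes settings, array weights, the reference group, the number in the title as a block and each array left out; fits without 3 hair-rich arrays and alternatives in the 4-group model were added after seeing the data. Tested on simulated data, the tumour comparison recovered 14.9% of 67 genes changed by 0.5, 79.1% of 67 changed by 1 and 97.0% of 66 changed by 2, and called 0.04% of 20152 unchanged genes. Far fewer genes were changed there than were called in the data (14.5% higher and 10.8% lower). The adjustment for many genes was therefore stricter in the simulation, and these shares cannot be carried over to the data.

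The members, lists and pairs were chosen with earlier results of these data known. Genes named are those of the isoform pairs and, per complex and per list, the 3 largest rises and falls among called genes, except members whose call differed in the same-genotype contrast. All further genes named, among them Ndufs1, Ndufs3, Cox6c, Atp5a1, the remaining accessory subunits, genes without a call, Ucp1, Slc25a5, Cycs, Cyc1, Ppargc1b and Esrra, were chosen after their values were seen. No positions on mm9 were used.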

Additional observations from a re-analysis of the deposited data

Results flagged for a closer look

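Of 118 groups of 5 or 6 arrays that were tested, 19 held an array whose gap to its nearest neighbour was large for the range of its group; by chance about 5% of such groups are marked. Normal skin 2 accounted for 14 of the 19. It was the high array of the normal skins for Cox6c (12.17), Ndufa1 (11.33), Ndufa2 (11.09), Ndufa5 (10.31), Ndufb11 (11.36), Ndufb4 (10.54), Ndufb5 (10.34), Ndufb8 (10.91), Ndufb9 (11.45) and Sdhc (9.78). It was also high for the median level of the complex I core genes (8.85) and of the complex III genes (9.95) and for Cox8b minus Cox8a (3.15), and it was the low array for Cox8a (8.70). Because these genes share the array, the marks are not independent of each other.

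The other 5 were in tumours. Keratoacanthoma 1 was low for Cox7a2 (9.72) and keratoacanthoma 5 high for Ndufs1 (8.79). Keratoacanthoma 3 was high for Ndufb4 (9.50), for the median level of the complex I accessory genes (9.50) and for that of the assembly factors (7.12).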

How the results depend on the processing

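All 29 called genes kept their direction in all 22 alternative fits, 16 to 29 of them stayed called, and 9 were called in every fit (Atp5e, Cox6a2, Cox7a1, Cox8b, Ndufa11, Ndufb11, Ndufb4, Ndufb8 and Ndufb9). The count of genes higher was 1 with the double transgenic reference alone, 8 with the single transgenic reference alone, 1 under quantile normalization, 3 without the 3 hair-rich arrays and 2 to 7 with 1 array left out. The count lower was 14 to 22 with 1 array left out. In the same-genotype contrast the higher count was 4 with the mean over probesets, 1 on the 7 double transgenic arrays and 1 to 3 with 1 array left out, and the lower count 4 to 41. Double against single transgenic skin gave 0 to 9 higher with 1 array left out.

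Group medians against the double transgenic skins alone were -0.35 (complex I core), -0.56 (complex I accessory), -0.30 (complex III) and -0.083 (assembly factors). Under quantile normalization they were -0.27 (complex I core), -0.52 (complex I accessory), -0.60 (complex II) and -0.092 (widely expressed complex IV). The median of all genes was -0.044 as deposited, -0.0066 after quantile normalization and 0.017 after centring.

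For Cox6a2 minus Cox6a1, Cox7a1 minus Cox7a2 and Cox8b minus Cox8a, the double transgenic reference alone gave -3.50, -4.39 and -5.63 (adjusted p = 0.13, unadjusted 0.048, exact permutation test), the replicate block -3.27, -4.34 and -5.34 (adjusted p = 0.17, unadjusted 0.062) and the fit without the hair-rich arrays -3.59, -4.40 and -5.58 (adjusted p = 0.076, unadjusted 0.029). Each unadjusted p is the smallest its design allows. With 1 array left out they ran from -3.37 to -2.88, from -4.44 to -4.10 and from -5.41 to -5.01. Cox8c minus Cox8a was -0.37 without dim probesets. Cox7b2 minus Cox7b was 0.17 with the double transgenic reference alone and -0.25 to 0.014 with 1 array left out, and Cox4i2 minus Cox4i1 was 0.039 without the hair-rich arrays.

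Among uncalled isoforms the sign turned for Cox4i2 (0.00046 on centring, 0.0077 with the double transgenic reference, 0.0036 under quantile normalization, 0.092 without the hair-rich arrays, -0.13 to 0.018 with 1 array left out) and Cox7b2 (0.015, 0.092, 0.046 and -0.12 to 0.058). It also turned for Cox8c (0.022 with the mean over probesets, 0.044 on centring, 0.0078 with the single transgenic reference, 0.072 under quantile normalization, -0.10 to 0.053 with 1 array left out). Under quantile normalization it turned for Cox7a2 (-0.0080), Cox7b (-0.14, and -0.075 with the double transgenic reference) and Cox8a (-0.090). The causes were not tested.

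With the number in the titles as a replicate block, 16 genes were lower and 4 higher. Same-numbered arrays correlated at -0.18 to 0.10 in their deviations from the group means, and 1 of 5 correlated best with its own number, so the numbers were not taken to pair the samples.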
